A study of Mus musculus with 6 samples.

Results

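Solute carriers are membrane proteins that move amino acids, sugars, ions, metals, vitamins, nucleotides and organic acids across the plasma membrane and across the membranes of organelles. They are numbered by family, and each family tends to share a kind of substrate. In liver, carriers on the sinusoidal face of the hepatocyte take substrates up from blood, carriers on the canalicular face pass waste compounds into bile, and the mitochondrial family SLC25 links the urea cycle, fatty acid oxidation and ATP export to the cytosol.

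The genes described here are those whose symbol starts with Slc and a digit. Each is represented by the brightest of its probe sets annotated to it alone, where a probe set is a group of short array probes for 1 transcript. The rule left out 5 genes (Slc2a2, Slc10a1, Slc27a2, Slc27a5 and Slc37a4). It gave 257 genes of 12393 single-gene symbols, and these 257 genes had 413 probe sets, 159 of them with 1 probe set and 98 with several. The choice used the gene name and the mean signal of all arrays, and not the difference between the groups. Of the 257 genes, 3 carry the symbol without being carriers, the scaffold genes Slc9a3r1 and Slc9a3r2 and the adaptor gene Slc4a1ap.

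The arrays compared liver of chromogranin A knockout mice with liver of wild-type mice, 3 arrays in each group. Chromogranin A (Chga) is a protein of the secretory granules of endocrine cells that is cut into peptide hormones. All animals were 12-week-old males, and the labels name neither the deleted allele nor the genetic background of either group. They do not say how the animals were fed or housed. No label says that the arrays of a group are separate animals, so p-values reflect only how these arrays vary, which may be technical.

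Chga itself had 1 dim probe set, which read 61.5, 44.5 and 231 in knockout against 167, 185 and 42.5 in wild type. The groups overlapped (log2 change -0.30 ± 0.75 SE, n = 3 per group), so Chga does not check the labels at this level. Arrays correlated at 0.964 to 0.974 within groups and 0.960 to 0.967 across groups. The share of all probe sets above background, defined as the 95th percentile of 27 bacterial control probe sets on the same array, was lowest at 64.4% (knockout replicate 2) and highest at 76.9% (wild-type replicate 3). Of the 257 carrier genes, 154 were above background on every array, 85 on some and 18 on none. In knockout replicate 2, 169 of them were above background, against 184 to 209 on the other arrays. In bulk liver, fewer cells of a type and less RNA per cell cannot be told apart.

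Of the 257 genes, 162 passed a filter that kept the upper 60% of probe sets by mean signal, and 95 did not. Only 4 genes were kept with 1 group's mean below the filter's limit, 2 higher and 2 lower in knockout. Slc9a8, described below, was 1 of the 2 lower ones. Over all 257 genes, without the filter, the median log2 change (knockout minus wild type) was 0.0069, and 125 genes lay below 0. The same median over the brightest probe set of every gene was -0.0034.

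No carrier gene passed limma with Benjamini-Hochberg adjustment at 0.05 over all kept probe sets (0 of 162). Over the whole array 0.376% of kept probe sets passed, or 0.423% of genes by their brightest probe set. The smallest adjusted p among the carriers was 0.0595, for Slc47a1. Changes of 1.5-fold or more with an unadjusted p under 0.01 were seen in 3 carriers, or 1.85% of 162, against 1.94% of all genes. Of the 3, 1 was higher in knockout (1.02% of all genes were) and 2 were lower (0.920% of all genes). With 1 array left out the count was 8 without knockout replicate 1, 6 without knockout replicate 2 and 5 without wild-type replicate 1. It was 7 without wild-type replicate 2 and 4 without either of the others. The share of all genes with each array left out is not given here.

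The count of weaker differences leaned downward. At an unadjusted p under 0.05, 6 carriers were higher in knockout (3.70% of 162, against 4.57% of all genes) and 21 were lower (13%, against 5.69% of all genes). The groups did not overlap for 8 carriers higher in knockout (4.94%, against 7.77% of all genes) and for 25 lower (15.4%, against 7.84%). Slc9a8, in both lower counts, was in the fit only through its wild-type arrays. Of the 162 carriers, 71 had a change above 0 (43.8%, against 47.3%). Without knockout replicate 3, the count of lower carriers at an unadjusted p under 0.05 was 13, the lowest among the arrays left out in turn. With all arrays, that count was 15 after median centring and 17 after quantile normalization. The shares of all genes under these alternatives are not given here, so these counts describe the carriers alone.

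Slc47a1, the exporter of organic cations that passes drugs and metabolic cations into bile, had the smallest p of the family. Its intensity was 17342, 14028 and 19001 in knockout against 11111, 11077 and 10224 in wild type. Every knockout array was above every wild-type array, with 16791 ± 2532 against 10804 ± 503 (SD, n = 3 each). The log2 change was 0.63 ± 0.12 SE, a 1.54-fold difference with a 95% interval of 0.36 to 0.89, and its adjusted p was 0.0595 (limma). It passed in 2 of 17 alternative settings, without knockout replicate 2 (limma adjusted p = 0.0346) and with a stricter filter (0.0482). In the others its adjusted p ran up to 0.338. Its log2 change ran from 0.53 to 0.75 over the settings. With array weights, and without knockout replicate 3, it was under 1.5-fold.

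Slc8b1, the mitochondrial sodium-calcium exchanger that lets calcium out of the matrix, was lower in knockout. It read 1467, 1464 and 1981 in knockout and 2942, 2610 and 2538 in wild type, without overlap. The log2 change was -0.73 ± 0.16 SE (95% interval -1.09 to -0.36, limma adjusted p = 0.108).

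Slc15a4, a lysosomal transporter of histidine and small peptides best known in immune cells, was also lower. Knockout arrays read 1676, 1407 and 1467, and wild-type arrays read 3390, 1978 and 3486. The groups did not overlap, although wild-type replicate 2 lay close to the knockout arrays, and the log2 change was -0.91 ± 0.22 SE (adjusted p = 0.122). Without wild-type replicate 2 its adjusted p was 0.0207.

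Markers of Kupffer cells and macrophages read lower too, in 10 of 11 genes in the fit, where 47.3% of all genes lay above 0. Of these markers, 0 were at an unadjusted p under 0.05. Their median was -0.23 over all 12 measured, their summed intensity ran from 20675 to 32709 in knockout and from 25954 to 34365 in wild type, and Marco was above background on no array. Slc11a1, the metal carrier of macrophage phagosomes, was at 0.15 ± 0.23 SE. The part of these cells in the Slc15a4 value was not tested.

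**Figure D1:**
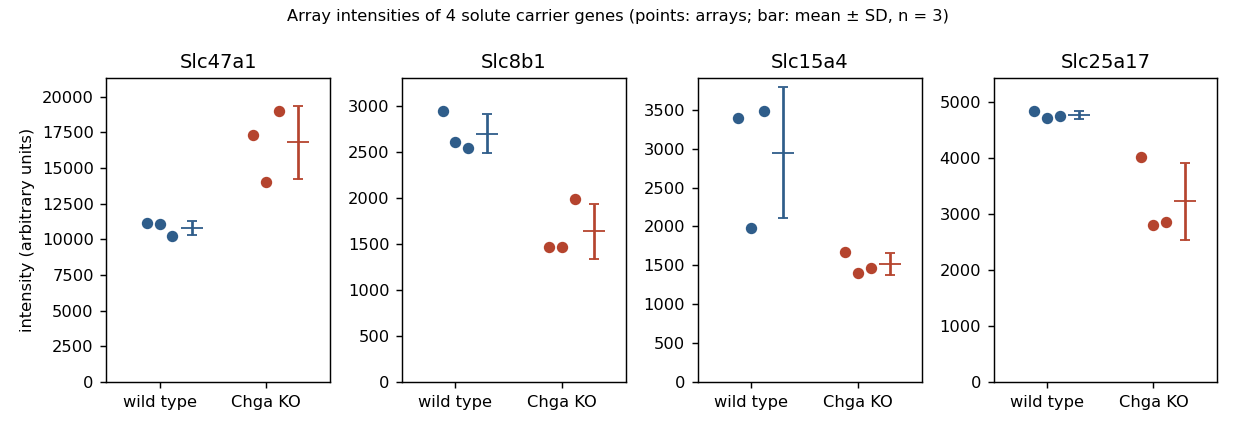
Array intensities (arbitrary units, linear axis from 0) of the carriers with the smallest unadjusted p, in wild-type and knockout liver. Points are single arrays and bars are the mean ± SD of 3 arrays; in each of the 4 genes the groups do not overlap, Slc47a1 being higher in knockout and Slc8b1, Slc15a4 and Slc25a17 lower, and no gene passed the adjusted threshold.

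Sinusoidal and other plasma membrane uptake carriers of hepatocytes were taken as a list of 20 known genes, of which 16 were measured, all of them in the fit and above background on every array. In knockout liver 14 of the 16 had a change below 0 and 2 above it, where 47.3% of all genes in the fit lay above 0. Of the 16, 6 were lower at an unadjusted p under 0.05, where 5.69% of all genes were. None of the 16 was higher at that level, and 0 of 16 passed the adjusted threshold. The list was chosen with earlier results of these data known, and these counts depend on which genes it holds. Slc16a7, a carboxylate carrier outside the list, was higher at that level (0.33 ± 0.15 SE). Carriers outside the list went both ways, as examples named after their values were seen show. Slc31a1 (0.13 ± 0.10 SE), Slc23a1 (0.14 ± 0.11 SE) and Slc44a1 (0.15 ± 0.12 SE) were above 0. Slc23a2 (-0.50 ± 0.17 SE) and Slc20a1 (-0.57 ± 0.23 SE) were below 0. The counts therefore describe this list and not uptake carriers in general. The median change of the 16 was -0.24. The median deviation from the wild-type mean was -0.29, -0.20 and -0.30 on the 3 knockout arrays, against 0.088, 0.0072 and -0.0069 in wild type, so the groups did not overlap. The count below 0 ran from 12 to 14 and the count at an unadjusted p under 0.05 from 4 to 6 over 17 alternative settings. Shares of all genes in those settings are not given here.

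Markers of hepatocytes themselves went the other way, with 10 of 10 above 0, where 47.3% of all genes in the fit were. The median of the 10 was 0.12, and 1 was at an unadjusted p under 0.05. Their summed intensity ran from 1454894 to 1652410 in knockout and from 1361144 to 1492715 in wild type. Markers of stellate cells were lower in 7 of 7 in the fit (median -0.24 over 9 measured, 2 at an unadjusted p under 0.05). Their part in the uptake carrier values was not tested.

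Slc22a5, the sodium-coupled importer of carnitine, read 1898, 2461 and 1992 in knockout and 2950, 3167 and 2939 in wild type. Its log2 change was -0.52 ± 0.15 SE (adjusted p = 0.211), and all knockout arrays lay below all wild-type arrays. A second, dimmer probe set of Slc22a5 was at -0.19 ± 0.22 SE.

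Slc38a2, a sodium-coupled importer of neutral amino acids, read 12730, 11182 and 10451 in knockout and 14877, 16049 and 13621 in wild type (-0.38 ± 0.11 SE, adjusted p = 0.242). Slc7a2, which imports arginine, lysine and ornithine, read 3329, 2415 and 3290 against 3834, 4326 and 4866 (-0.53 ± 0.16 SE, adjusted p = 0.249). Slc39a14, an importer of zinc, manganese and non-transferrin iron, read 5812, 5621 and 5839 against 7707, 6644 and 7516 (-0.34 ± 0.11 SE, adjusted p = 0.306). For each of these 3 genes the groups did not overlap.

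Slc16a1, which carries lactate, pyruvate and ketone bodies, read 2673, 2313 and 2429 in knockout and 3501, 3814 and 2563 in wild type. Its groups overlapped through wild-type replicate 3 (-0.39 ± 0.17 SE, adjusted p = 0.470). Slc6a6, the taurine importer, also had overlapping groups, at 1069, 1304 and 771 against 1735, 1641 and 1149 (-0.53 ± 0.24 SE, adjusted p = 0.501).

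The other uptake carriers had adjusted p-values of 0.512 or more. Slc38a4 and Slc38a3, importers of neutral amino acids and glutamine, stood at the 99.0th percentile of signal. Slc38a4 was at -0.15 ± 0.08 SE (95% interval -0.32 to 0.019) and its groups did not overlap, while its second probe set was at -0.038 ± 0.08 SE. Slc38a3 was at -0.14 ± 0.10 SE, Slc1a2, the glutamate importer, at -0.32 ± 0.20 SE, and the urate and hexose carrier Slc2a9 at -0.15 ± 0.19 SE. Slc17a2, a carrier of phosphate and organic anions, was at -0.24 ± 0.11 SE, and the zinc and manganese importer Slc39a8 at -0.25 ± 0.12 SE. Slc6a13, an importer of GABA and taurine, was at -0.034 ± 0.13 SE. The organic anion carrier Slc22a7 was at -0.060 ± 0.26 SE, and its knockout arrays spread from 1433 to 2928. The 2 members above 0 were Slc29a1, the equilibrative nucleoside transporter (0.22 ± 0.11 SE, its groups not overlapping), and Slc3a2, the heavy subunit shared by several amino acid exchangers (0.089 ± 0.13 SE).

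**Figure D2:**
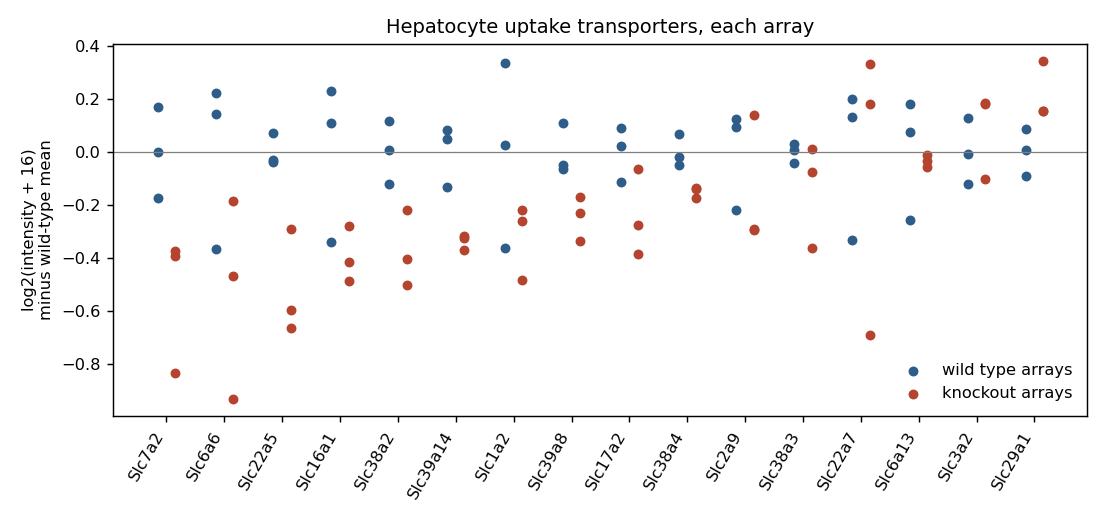
Deviation of each array from the wild-type mean, on the log2(intensity + 16) scale, for the 16 measured uptake carriers ordered by their change. Blue points are wild-type arrays and red points knockout arrays; 14 of 16 genes have a change below 0, and in Slc22a5, Slc38a2, Slc7a2 and Slc39a14 the knockout arrays lie below all wild-type arrays.

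Promoter sequences from RefSeq (GRCm38.p6) were matched for 202 of the 257 genes. They are shown for 3 of the 6 lower uptake carriers, those with a matched sequence. These genes were picked by their values in these data, and whether they share control was not tested. Each sequence is the 250 bases before the start of transcription, written 5′ to 3′ on the gene's strand. Capitals mark a GC box (GGGCGG on either strand), the element bound by Sp1-like factors, or an E-box (CACGTG, the same on both strands). The first lies at chr11:53891704-53891953 (minus strand), the second at chr3:104638414-104638663 (plus strand) and the third at chr15:96699729-96699978 (minus strand).
Slc22a5: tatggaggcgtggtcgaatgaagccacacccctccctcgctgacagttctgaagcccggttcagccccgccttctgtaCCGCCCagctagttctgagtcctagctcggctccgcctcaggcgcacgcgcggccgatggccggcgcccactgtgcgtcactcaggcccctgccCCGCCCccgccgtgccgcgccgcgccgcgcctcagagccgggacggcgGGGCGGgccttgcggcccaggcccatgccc
Slc16a1: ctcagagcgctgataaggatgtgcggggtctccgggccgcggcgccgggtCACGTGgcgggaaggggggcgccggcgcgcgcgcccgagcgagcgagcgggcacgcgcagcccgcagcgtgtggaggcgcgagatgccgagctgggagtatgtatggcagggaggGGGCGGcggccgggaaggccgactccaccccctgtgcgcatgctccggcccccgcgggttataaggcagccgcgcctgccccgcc
Slc38a2: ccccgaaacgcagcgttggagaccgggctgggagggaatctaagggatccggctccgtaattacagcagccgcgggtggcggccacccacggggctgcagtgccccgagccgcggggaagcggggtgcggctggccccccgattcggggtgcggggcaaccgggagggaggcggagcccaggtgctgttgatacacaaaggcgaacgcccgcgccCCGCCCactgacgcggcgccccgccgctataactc
All 3 held a GC box, 3 copies in Slc22a5 and 1 in each of the others, and Slc16a1 held an E-box. A GC box was present in 32.7% of 32851 windows of all genes and in 52.4% of 267 windows of the carriers. An E-box was present in 6.02% and 10.1% of these windows. The cAMP response element TGACGTCA (1.55% of all windows, 0.749% of the carriers') and the element TATAAA on either strand (12.4% and 7.87%) were in none of the 3 windows. The array measured transcripts and not these sequences.

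By substrate class, the amino acid carriers and related osmolyte carriers were the largest group, with 36 genes and 17 in the fit. Of these 17, 13 lay below 0 and 4 were lower at an unadjusted p under 0.05, with none higher. For this and the classes below, 47.3% of all genes in the fit lay above 0. At that level 5.69% of all genes were lower and 4.57% higher. The median over the 17 was -0.15, but over all 36 it was 0.017, since the 19 too dim for the fit leaned upward. Beside Slc38a2, Slc7a2 and Slc6a6, the fourth was Slc3a1, the heavy subunit of the cystine and dibasic amino acid exchanger, at 3770, 3868 and 2474 in knockout and 4474, 4884 and 5443 in wild type (-0.57 ± 0.18 SE, adjusted p = 0.271, groups not overlapping).

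The mitochondrial family SLC25 had 33 genes, 28 of them in the fit, with 13 above and 15 below 0 and a median over all 33 of -0.018. Of its members 3 were lower and 1 higher at an unadjusted p under 0.05. Slc25a17, a peroxisomal carrier of coenzyme A and NAD, read 4025, 2812 and 2856 in knockout and 4846, 4717 and 4760 in wild type (-0.58 ± 0.15 SE, adjusted p = 0.170). Its groups did not overlap, and without knockout replicate 1 its adjusted p was 0.0463.

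Slc25a47, a mitochondrial carrier found mostly in liver, read 35682, 35164 and 41093 against 48233, 47549 and 44966 (-0.33 ± 0.09 SE, adjusted p = 0.186). Slc25a42, which imports coenzyme A into mitochondria, read 2532, 2158 and 2274 against 3230, 3022 and 3273 (-0.45 ± 0.13 SE, adjusted p = 0.236). Slc25a44, a carrier of branched-chain amino acids, was the higher one, at 3275, 3288 and 2968 against 2152, 2654 and 1832 (0.53 ± 0.16 SE, adjusted p = 0.248). The groups of all 3 genes did not overlap.

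For 5 further mitochondrial carriers, named for their known liver roles, the interval spanned 0. Slc25a15, which brings ornithine into mitochondria, was at 35096 ± 1503 against 33951 ± 1624 (SD, n = 3 each), a log2 change of 0.048 with a 95% interval of -0.14 to 0.23. Slc25a13, the aspartate-glutamate carrier citrin, was at 0.19 (-0.071 to 0.45), and the dicarboxylate carrier Slc25a10 at 0.21 (-0.082 to 0.50). Slc25a20, which brings acylcarnitines into mitochondria, was at 0.051 (-0.19 to 0.29). Slc25a5, an exchanger of ADP and ATP, was at 0.053 (-0.12 to 0.23) by its brightest probe set, and the other 7 probe sets lay between -0.090 and 0.085. Several of these have the suffix x_at, which marks probes shared with other transcripts, so the member measured is uncertain.

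Members were also counted by pathway. Of the 6 measured carriers of citrate, malate and aspartate, 0 of 5 in the fit were at an unadjusted p under 0.05. Of 10 urea cycle and ammonia carriers, 1 of 7 in the fit was lower (Slc7a2). Of 9 carnitine and acyl carriers, 2 of 6 were lower (Slc22a5 and Slc25a17). Of 9 carriers of ATP, phosphate and related cofactors, 1 of 8 was lower (Slc25a42). Of 28 iron, zinc, copper and manganese carriers, 3 of 27 were lower (Slc40a1, Slc39a14 and Slc39a7). None of these lists had a higher member at that level. Of all genes in the fit, 5.69% were lower and 4.57% higher at that level.

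Transition metal and magnesium carriers had 25 genes, 24 of them in the fit, and a median of -0.055 over all 25. Of the 24, 11 lay above and 13 below 0, and 3 were lower at an unadjusted p under 0.05: Slc39a14, Slc39a7 and Slc40a1. Slc39a7, which releases zinc from the endoplasmic reticulum, read 2099, 1976 and 2029 against 3059, 2575 and 2320 (-0.37 ± 0.15 SE, adjusted p = 0.446). Slc40a1, the iron exporter ferroportin, read 23173, 25662 and 23080 against 28164, 26566 and 28037 (-0.20 ± 0.09 SE, adjusted p = 0.483). Neither gene's groups overlapped, and the second probe set of Slc40a1 was at -0.21 ± 0.12 SE. The plasma membrane zinc exporter Slc30a1 was at 0.26 ± 0.24 SE.

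The anion class (bicarbonate, chloride, sulfate, phosphate and iodide) had 32 genes and 15 in the fit, 11 of them below 0, with 1 lower at an unadjusted p under 0.05. That gene was Slc20a1, a phosphate importer, with overlapping groups (4536, 3564 and 2225 against 4035, 5527 and 5341, -0.57 ± 0.23 SE, adjusted p = 0.449). Its second probe set was at 0.013 ± 0.39 SE. In the sodium, potassium, calcium and proton class 3 of 8 genes were in the fit, and the median over all 8 was 0.17. Slc9a8, a sodium-proton exchanger of the Golgi, was dim in knockout, at 312, 268 and 222 against 507, 485 and 495. Its change was -0.87 ± 0.35 SE (limma adjusted p = 0.449), and it exceeded background on 2 of the 3 knockout arrays. The knockout mean of Slc9a8 lay below the filter's limit, so it was in the fit only through its wild-type arrays.

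Vitamin, heme and choline carriers (14 genes, 11 in the fit) went both ways, with a median of 0.15 over all 14. Slc23a2, an ascorbate importer, read 1457, 1289 and 1102 against 2052, 1677 and 1733 (-0.50 ± 0.17 SE, adjusted p = 0.352). Slc5a6, the carrier of biotin and pantothenate, read 242, 660.4 and 442 against 807, 695 and 727 (-0.81 ± 0.36 SE, adjusted p = 0.490). Slc52a3, a riboflavin importer, read 695, 885 and 1076 against 292, 502 and 716 (0.86 ± 0.34 SE, adjusted p = 0.437), and its groups overlapped.

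Among 13 carriers of nucleotide sugars and related donors in the secretory pathway, 12 were in the fit, 6 above and 6 below 0. Slc35b3, which brings the sulfate donor PAPS into the Golgi, was at -0.35 ± 0.16 SE (adjusted p = 0.498), and the CMP-sialic acid carrier Slc35a1 at -0.29 ± 0.13 SE (adjusted p = 0.503), with a second probe set at -0.37 ± 0.14 SE. Both genes had groups that did not overlap. Of 16 sugar and polyol carriers, 8 were in the fit, with 0 at an unadjusted p under 0.05 and changes between -0.18 and 0.11. The intracellular hexose carrier Slc2a8, with the smallest p of these, was at -0.18 ± 0.19 SE.

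The remaining classes were small or dim. Of 16 organic ion carriers 6 were in the fit, including Slc47a1 and Slc22a5, and the median over all 16 was 0.23. Of 7 fatty acid and bile acid carriers 5 were in the fit, and the median over all 7 was -0.22. Slc10a3, of the bile acid carrier family, had no overlap, at 434, 254 and 700.4 against 992, 723 and 1046 (-1.06 ± 0.36 SE, adjusted p = 0.336), and it was above background on 2 of 3 knockout arrays. Of 7 carboxylate carriers 3 were in the fit, with Slc16a1 lower and its relative Slc16a7 higher (3980, 3778 and 3575 against 2624, 3623 and 2852, 0.33 ± 0.15 SE, adjusted p = 0.499).

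Of 9 vesicular and neurotransmitter carriers and 7 carriers of nucleosides and nucleobases, 3 each were in the fit, with 0 at an unadjusted p under 0.05. The medians over all genes of these classes were 0.41 and 0.094. Of 7 carriers of peptides and urea, 3 were in the fit, including Slc15a4, and the median over all 7 was -0.38. The 3 genes that are not carriers were all in the fit, with 0 at that level. The 24 carriers with no substrate assigned here had 18 in the fit, with Slc45a3 (0.77 ± 0.32 SE) and Slc35e4 (0.74 ± 0.31 SE) higher and Slc35f5 (-0.28 ± 0.12 SE) lower at an unadjusted p under 0.05. The groups of Slc45a3 and Slc35e4 overlapped (limma adjusted p = 0.463 and 0.469), and both rest on x_at probe sets. A second probe set of Slc45a3 was at 0.50 ± 0.24 SE, and a dim one of Slc35e4, outside the fit, at 0.023 ± 0.60 SE. Slc25a42, Slc25a44, Slc3a1, Slc6a6, Slc9a8, Slc5a6, Slc16a7 and Slc35f5 were named after their values were seen, which completes the 27 genes at an unadjusted p under 0.05.

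**Figure D3:**
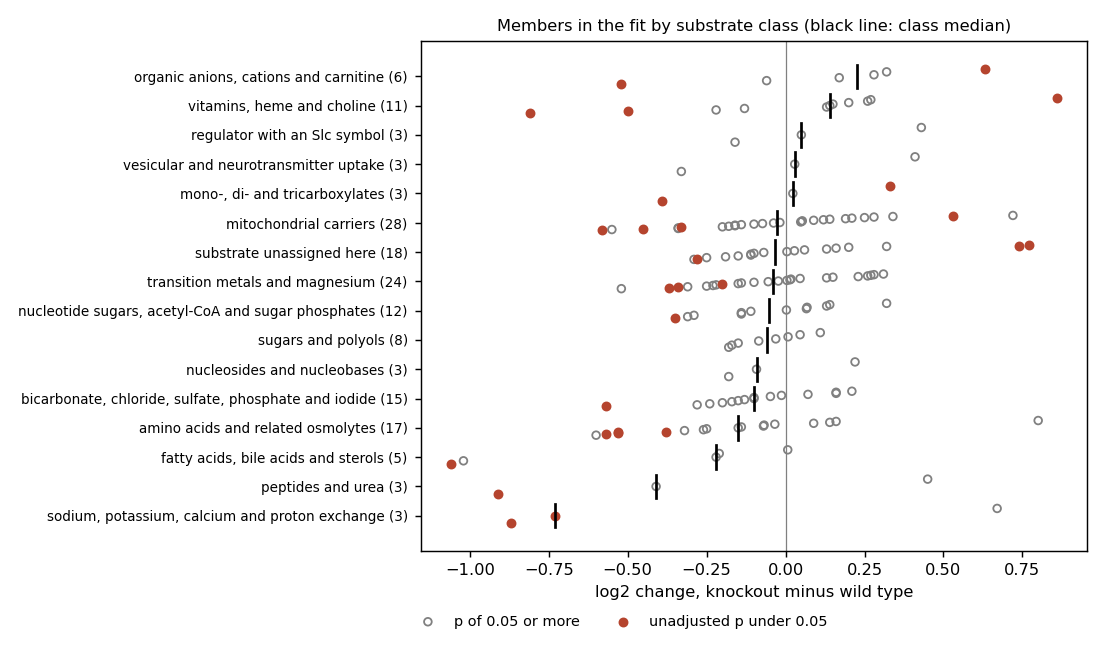
Log2 change (knockout minus wild type) of the 162 carrier genes in the fit by substrate class, with the number of genes in brackets. Each circle is a gene, filled where its unadjusted p is under 0.05, and black lines are class medians over genes in the fit; no gene passed the adjusted threshold.

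Signal level set how small a difference the arrays could resolve. Array signal depends on the probes as well as on the transcript, so levels here place genes in bins and do not rank transcripts. Below the 40th percentile lay 95 carriers (37%, against 35.1% of all genes). Their median change was 0.23, against 0.058 for all genes in that bin. The median absolute change of these carriers was 0.49, or 1.41-fold, on a median SE of 0.69, and 0 were above background on every array. Their groups did not overlap in 11 genes, in either direction, where 9.92% of all genes in that bin did not overlap.

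From the 40th to the 70th percentile lay 74 carriers, with a median absolute change of 0.20, and a gene of median SE needed a change of 1.66 (3.17-fold) to pass the adjusted threshold. From the 70th to the 90th percentile lay 67 carriers, for which this was 0.88 (1.84-fold). Above the 90th percentile lay 21 carriers (8.17%, against 11.6% of all genes), for which it was 0.59 (1.5-fold).

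Of the 21 carriers lower at an unadjusted p under 0.05, 13 lay between the 70th and 90th percentile, where 7.11% of all genes were lower at that level. In that bin of 67 carriers 2 were higher, against 3.87% of all genes. Its median change was -0.11, against -0.036 for all genes in that bin, and its median absolute change was 0.20 against 0.14. The bin below it, with 74 carriers, had 5 lower (3.99% of all genes in it were) and 3 higher (3.15%). The top bin, with 21 carriers, had 3 lower (7.23%) and 1 higher (9.67%).

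**Figure D4:**
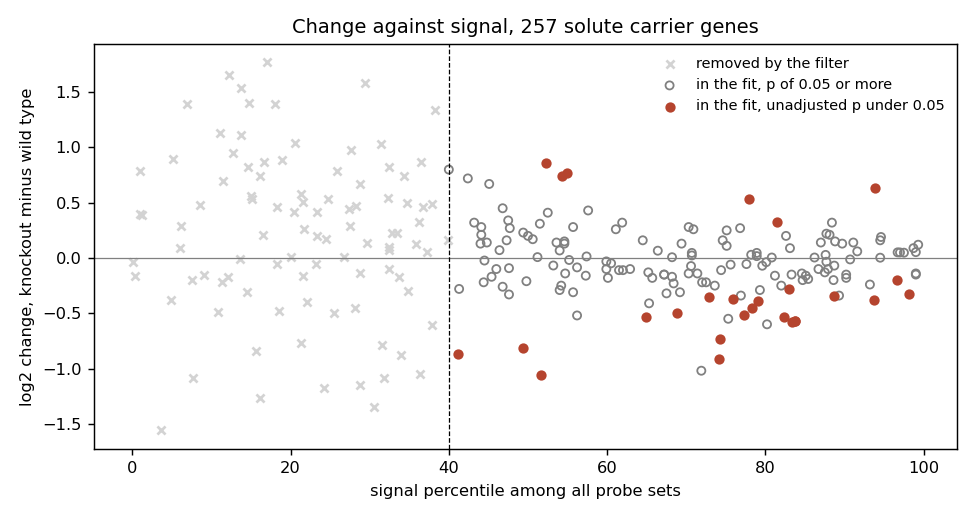
Log2 change (knockout minus wild type) of all 257 carrier genes against the percentile of their mean signal among all probe sets. Crosses are the 95 genes removed by the filter, left of the dashed line at 40, and filled points are the 27 genes at an unadjusted p under 0.05, of which 21 lie below 0; the spread narrows as signal increases.

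Probe sets of the same gene gave a further look at each change, though they share the RNA sample. Among 59 carriers with at least 2 probe sets in the fit, 53 of 85 other probe sets had the sign of the brightest one. In 32 genes all agreed. The same share over all genes is not given here. The 3 probe sets of Slc7a2 were at -0.53, -0.42 and -0.39, and the 3 of Slc25a44 at 0.53, 0.34 and 0.50. Both probe sets of Slc39a14 lay below 0 (-0.34 and -0.35). Others disagreed, such as Slc11a2 (-0.52 by its brightest, 0.064 and 0.30 by the others) and Slc48a1 (-0.22 and 0.47).

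Slc25a30, a mitochondrial carrier, was the only gene with a probe set in the fit at an unadjusted p under 0.01 and 1.5-fold change beside others in the fit that were not. That probe set was at -0.95 ± 0.26 SE (limma adjusted p = 0.195), with arrays at 654, 1257 and 857 against 2023, 1317 and 1944. The brightest was at -0.55 ± 0.29 SE and the third at -0.36 ± 0.22 SE. The dimmer probe set of Slc25a17, removed by the filter, was at 1.28 ± 0.85 SE, opposite in sign to the brightest. A dim probe set of Slc41a3, of a magnesium carrier family, also outside the fit and named after its values were seen, was at -2.11 ± 0.62 SE (adjusted p = 0.325 without the filter), while its brightest probe set was at -0.31 ± 0.26 SE.

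**Figure D5:**
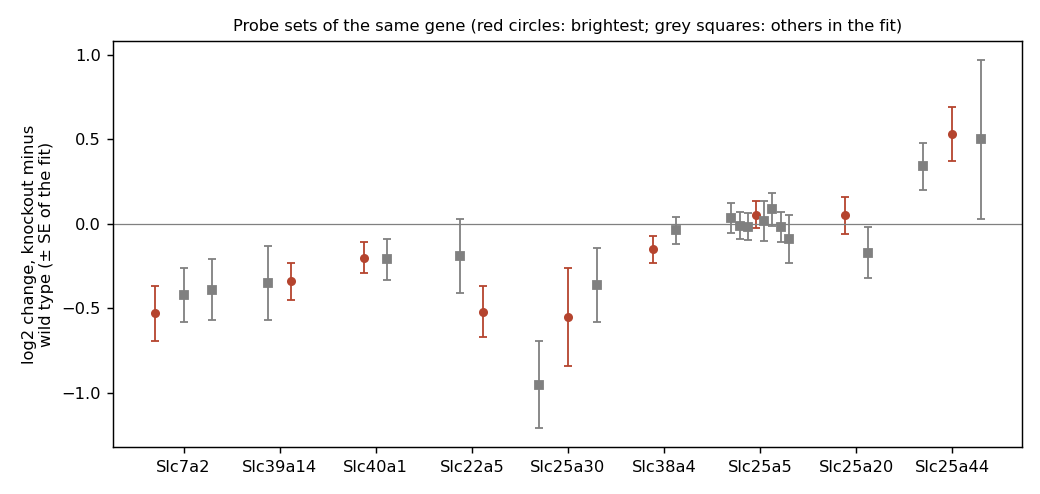
Log2 change (knockout minus wild type) of every probe set in the fit for 9 carrier genes, with the SE of the fit as bars. Red circles are the brightest probe set of a gene and grey squares the others; the 3 probe sets of Slc7a2 lie between -0.53 and -0.39, and the 8 of Slc25a5 between -0.090 and 0.085.

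Carriers on the chromosome of Chga (12) were located by gene order. Within 100 measured genes of Chga lay 3 carriers in the fit. Slc25a29, a carrier of basic amino acids, and Slc25a47 were 26 and 27 measured genes away on the same side, at -0.073 ± 0.24 SE and -0.33 ± 0.09 SE. The zinc importer Slc39a9 was 66 genes away on the other side, at 0.017 ± 0.17 SE.

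Transporters outside the Slc symbols were read for comparison. Of all genes in the fit, 5.69% were lower and 4.57% higher at an unadjusted p under 0.05, and 0.423% passed the adjusted threshold. The organic anion carrier family Slco had 11 genes, 4 in the fit, of which 2 were lower at an unadjusted p under 0.05 (Slco1a1 and Slco1a4) and 0 passed the adjusted threshold. Of 36 ATP-binding cassette transporters, 30 were in the fit, 14 above and 16 below 0, with 5 lower and 1 higher at an unadjusted p under 0.05 and 1 past the adjusted threshold, Abcg8. Of 8 aquaporins 3 were in the fit with 0 at that level. Of 9 ion pump genes 8 were in the fit, with 2 higher (Atp1b1 and Atp2a2) and none lower, and of 9 mitochondrial carriers without an Slc symbol 6 were in the fit, with 2 higher (Mpc1 and Sfxn1).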

How the data were processed

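Liver RNA was hybridised to 6 Affymetrix mouse arrays. The submitters' processing notes name GCOS 1.2. The deposited table holds intensities per probe set on a linear scale; their mean after trimming 2% at each end was 2501 on every array, and how they were scaled is not given in the sources. Of 22690 probe sets, 64 controls were left out; of the other 22626, 20380 had 1 gene in the platform annotation, 691 several and 1555 none. Symbols were updated through RefSeq (GRCm38.p6), which also gave gene order.

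From these deposited intensities, log2(intensity + 16) was computed and fitted in 1 model of the 6 arrays, with no covariate, by lmFit and eBayes (trended prior) of limma 3.58.1 under R 4.3.3. Only the upper 60% of probe sets by mean signal entered, 13576 probe sets of 8047 genes, and Benjamini-Hochberg adjustment ran over all of them. Fold changes are on this scale, which understates dim genes. The fit was tested on simulated data. The number of arrays limits the precision, and a single value compared between 3 and 3 arrays cannot reach an exact permutation p below 0.1.

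The 37 named genes were members past the adjusted threshold, members at an unadjusted p under 0.01 with 1.5-fold change, the 2 smallest p of each class with at least 5 genes in the fit, known liver carriers, carriers near Chga, and genes whose probe sets disagreed. Members, classes and lists were chosen with earlier results of these data known, and the count at an unadjusted p under 0.05 was added after the data were seen. The alternatives were other pseudocounts, scalings, filters and eBayes settings, a replicate block, averaging a gene's probe sets, and each array left out.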

Additional observations from a re-analysis of the deposited data

How the results depend on the processing

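The count of carriers past the adjusted threshold was 0 under all alternatives but 1 (1 with only the upper 40% of probe sets) and ran from 0 to 1 with each array left out: Slc25a17 without knockout replicate 1, Slc47a1 without knockout replicate 2 and Slc15a4 without wild-type replicate 2. The count at an unadjusted p under 0.01 with 1.5-fold change was 5 with array weights and ran from 4 to 8 with each array left out (8 without knockout replicate 1). At an unadjusted p under 0.05, 3 carriers were higher with the upper 40%, and 13 to 22 were lower with each array left out. With median centring 15 were lower and 6 higher, and with quantile normalization 17 were lower and 7 higher. Shares of all genes at these unadjusted thresholds are given only for the main fit, so the counts here describe the carriers alone. Over all kept probe sets the count called was 7 without the intensity trend, 21 without wild-type replicate 3, 23 without wild-type replicate 1, 27 with the replicate block, and 82 and 85 with array weights and the largest pseudocount. Same-numbered arrays deviated from their group means with correlations of -0.059, -0.06 and -0.065, and no array correlated best with its own number. These values show no pairing by number, but they cannot tell whether same-numbered arrays were processed together, which the labels do not give. The replicate block gave 0 carriers past the adjusted threshold and 16 lower at an unadjusted p under 0.05.

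The median over all carriers ran from -0.044 to 0.055 with each array left out. Class medians ran over these ranges for amino acids (-0.15 to 0.019), anions (-0.13 to 0.081), fatty and bile acids (-0.39 to -0.18), nucleosides (-0.18 to 0.13), nucleotide sugars (-0.088 to 0.016), sodium to proton exchange (-0.32 to 0.22), metals (-0.16 to 0.011) and vitamins (0.088 to 0.18). Exchange carriers were at 0.033 with the largest pseudocount; averaging a gene's probe sets, nucleotide sugar carriers were at -0.049 and vitamin carriers at 0.21. Some genes changed sign: with that average, Slc25a15 (-0.0088), Slc25a20 (-0.059) and Slc25a29 (0.14); after quantile normalization, Slc25a5 (-0.020); with array weights, Slc39a9 (-0.036); and with an array left out, Slc10a2 (-1.77 to 0.080), Slc22a7 (-0.26 to 0.26), Slc25a20 (-0.0038 to 0.15), Slc25a29 (-0.26 to 0.17) and Slc39a9 (-0.12 to 0.14). The cause was not tested. Of the 37 named genes, the other alternatives moved only Slc47a1, Slc25a17 and Slc15a4 past the threshold. Dim signal limits the 95 carriers under the filter, which were outside the adjusted test.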

Other observations

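Slc10a2, the ileal sodium-bile acid importer, rested on 1 array. It read 265, 2051 and 3643 in knockout against 2581, 2062 and 3249 in wild type. The log2 change of -1.02 ± 0.71 SE (95% interval -2.59 to 0.56) was 0.080 without knockout replicate 1.

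Slc66a1, a lysosomal exporter of cationic amino acids chosen here after its values were seen, spread widely in both groups. It read 1565, 3113 and 3255 in knockout and 5340, 3414 and 3026 in wild type, and its log2 change was -0.60 ± 0.28 SE (limma adjusted p = 0.530).

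Among carriers too dim for the fit, Slc51a, a subunit of the basolateral bile acid exporter, read 239.7, 58.8 and 126 in knockout and 459, 346 and 246 in wild type. Its groups did not overlap, and its log2 change in a fit without the filter was -1.35 ± 0.60 SE (limma adjusted p = 0.622). It was also named after its values were seen.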
